A study of Mus musculus with 2 samples.

Results

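miR-143 and miR-145a are microRNAs (miRNAs), short RNAs that lower the output of the messenger RNAs they pair with. Their 4 mature forms, mmu-miR-143-3p, mmu-miR-143-5p, mmu-miR-145a-5p and mmu-miR-145a-3p (named below without the species prefix), were followed here in mouse epididymal fat on 2 diets. They were found by probe name among the 1900 miRNA probes of the array, where each of the 4 had a single spot. The names 3p and 5p mark the arms of a hairpin precursor from which a mature strand is cut. In the RefSeq annotation of assembly GRCm38.p6, Mir143 and Mir145a lie within the same long non-coding RNA gene, Carmn.

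The cluster is best known from smooth muscle and pericytes, where serum response factor and myocardin switch it on and where miR-145 favours the contractile state by repressing the transcription factors Klf4 and Klf5. In fat the cluster is made by the vessel wall and stroma and also by adipocytes. In human preadipocytes miR-143 has been linked to differentiation through its target ERK5 (MAPK7), and in mouse liver to weaker insulin signalling through its target Osbpl8.

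Total RNA came from epididymal adipose tissue of male C57BL/6J mice. Feeding began at 8 weeks of age and went on for 8 weeks. The high-fat group ate a chow in which fat supplied 60% of the calories, and the normal-diet group one with 5% fat. A single array stands for each diet, and the number of animals behind it is not in the labels. The number of arrays limits the precision, and no difference below has a p-value or an error between animals. Per the file headers the arrays were different positions on a slide, and position and diet cannot be told apart.

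The high-fat array detected 1510 miRNAs (79.5%) and the normal-diet array 1370 (72.1%), and 1339 were detected on both. Detected means a spot above the trimmed mean of the array's blank spots plus 2 SD, which was 70.8 intensity units on the high-fat array and 77.5 on the normal-diet array. The arrays differed in miRNAs of other cells. Over the 12 listed epididymis and epithelium miRNAs, the summed unscaled signal above the blanks was 3107 units on the high-fat array and 141.2 on the normal-diet array. The 3 listed erythroid miRNAs with a probe of their own summed to 1050 units on the high-fat array and 5534 on the normal-diet array. Their part in the differences of miR-143 and miR-145a was not tested.

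All 4 arms of the cluster had lower normalised intensity on the high-fat array with quantile scaling, although miR-145a-3p was higher against the spike controls and miR-145a-5p with the local background, as described below. The median log2 difference, high-fat minus normal diet, was -0.55, beside -0.04 over all 1339 miRNAs detected on both arrays. With quantile scaling 64.4% of those 1339 lay below their normal-diet value, and the 4 arms share a transcript. Being lower under that scaling thus sets them little apart from the background. The share was 38.3% without scaling and 49.7% in the authors' deposited table, and all 4 arms were lower in both. Against the spike controls it was 5.75%, with 3 of the 4 arms lower. With quantile scaling none of the 4 reached 2-fold, a size that 0.747% of the miRNAs passed toward lower and 1.27% toward higher values. In bulk tissue, fewer cells that make these miRNAs and less of them per cell cannot be told apart.

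miR-143-3p is the abundant arm of its precursor and the one whose targets are named above. Its spot median was 1276 units on the high-fat array and 2412 units on the normal-diet array, which left 1206 units above the blanks on high-fat diet and 2336 on normal diet. After scaling, its normalised intensity was 1401 on the high-fat array and 2117 on the normal-diet array, a log2 difference of -0.60 or a 1.51-fold lower value. Ranked by spot median among the 1900 probes, it was number 30 on the high-fat array and number 17 on the normal-diet array.

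miR-145a-5p, the abundant arm of the smooth muscle regulator, differed by a like amount. It had 839.3 units above the blanks on the high-fat array and 1488 on the normal-diet array. Its normalised intensity was 899.9 on the high-fat array against 1401 on the normal-diet array (log2 difference -0.64, 1.56-fold lower), the lowest value of the 4 arms. Its rank was 50 on the high-fat array and 30 on the normal-diet array. The quantile scaling used here gives equal ranks equal values, which is why miR-143-3p on high-fat diet and miR-145a-5p on normal diet, each at rank 30 of its array, share the value 1401.

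The strands opposite the abundant arms are usually degraded after processing. Here they were dimmer than the abundant arms but measurable, and they are called the dim arms below. miR-143-5p had 90.1 units above the blanks on the high-fat array and 128.7 on the normal-diet array. This became a normalised intensity of 134.1 on the high-fat array and 191.2 on the normal-diet array, with a log2 difference of -0.51. miR-145a-3p was the dimmest, at 19.7 units above the blanks on the high-fat array and 32.5 on the normal-diet array. This is 12.4 times the distance from the blank mean to the detection limit on high-fat diet and 17.4 times on normal diet. Its normalised intensity was 71.1 on the high-fat array and 92.3 on the normal-diet array (log2 difference -0.38). Its rank was 648 on the high-fat array and 402 on the normal-diet array, and that of miR-143-5p was 261 on high-fat diet and 186 on normal diet.

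**Figure D1:**
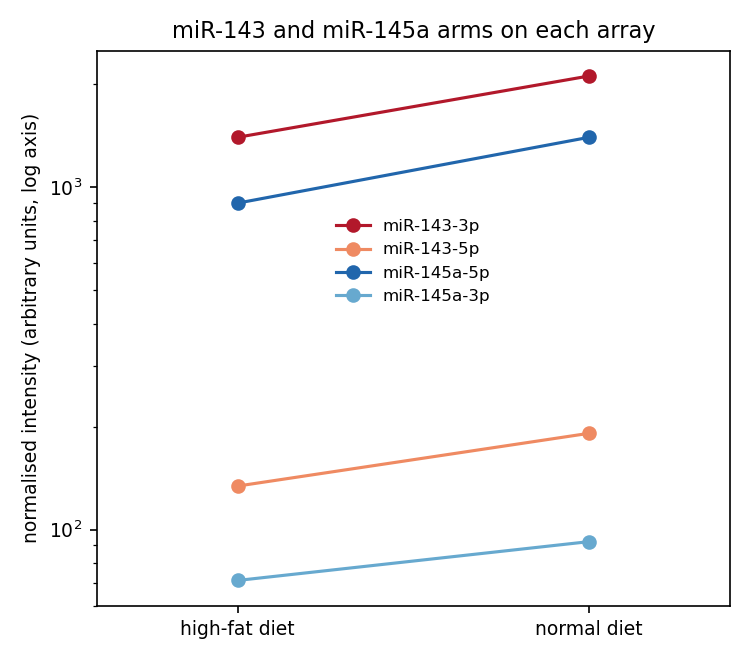
Normalised intensity of the 4 arms (arbitrary units, log axis) on the high-fat array (left) and the normal-diet array (right), 1 array per diet, with a line joining the values of each arm. With quantile scaling every arm is lower on the high-fat array, from 1401 against 2117 for miR-143-3p down to 71.1 against 92.3 for miR-145a-3p.

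Strands of the same precursor are made in equal number, so their differences were set side by side. The miR-143 arms differed from each other by -0.08 (miR-143-3p minus miR-143-5p) with quantile scaling, and the miR-145a arms by -0.26 (miR-145a-5p minus miR-145a-3p). This gap depended on the processing. Without scaling it was -0.57 for miR-143 and -0.54 for miR-145a, and since a constant shift per array cannot move it, it was the same with the spike controls, the median and both 75th percentiles. With cyclic loess it was -0.33 for miR-143 and -0.39 for miR-145a, and in the authors' deposited table -0.44 for miR-143 and -0.10 for miR-145a. The SD of an unscaled single-spot log2 difference over 7 sets of 8 repeated control spots was 0.033 to 0.185. This spread is within a set and does not cover a gap between a bright and a dim probe. The unscaled mean difference itself varied between control sets of unlike brightness. It was -0.31 for Spike Control 1, -0.46 for S-Probe28, -0.18 for S-Probe27 and 0.02 for S-Probe7, named from brightest to dimmest. Spike Control 2 was at -0.33, S-Probe26 at -0.30 and the dim set Negative Control 3 at -0.07. The part of brightness in the gaps was not tested. The offset of 50 added in the background correction draws dim probes toward 0. With an offset of 16 the gaps were 0.04 for miR-143 and -0.0061 for miR-145a, and all 4 arms lay between -0.61 and -0.66. With plain subtraction of the blank mean followed by quantile scaling, the order of the arms turned. There miR-145a-3p, at -1.17, was lower than miR-145a-5p, at -0.67, and miR-143-5p, at -0.78, lower than miR-143-3p, at -0.61. Subtraction without any scaling kept the order. It gave -0.95 for miR-143-3p and -0.51 for miR-143-5p, and -0.83 for miR-145a-5p and -0.72 for miR-145a-3p. With the local background the gap was -1.03 for miR-143 and 3.64 for miR-145a.

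Repeated control spots gave the only measure of error, and it covers spots within an array, not animals. On the unscaled log2 scale miR-143-3p differed by -0.92 and miR-145a-5p by -0.79. The control set nearest to them in signal, S-Probe28 (1595 units above the blanks on the high-fat array and 2194 on the normal-diet array), averaged -0.46 with an SD of 0.185 over 8 spots, and its lowest spot was at -0.75. Both abundant arms thus lay below all 8 control spots. miR-143-5p was at -0.35 unscaled, below the lowest spot of the control set nearest to it, S-Probe27, at -0.30 (mean -0.18, SD 0.102). For miR-145a-3p, at -0.25 unscaled, the nearest set, S-Probe7, was much dimmer. It was at 7.06 units on the high-fat array and 5.34 on the normal-diet array, and spanned -0.07 to 0.13. The likewise dim set Negative Control 3, at 4.85 units on the high-fat array and 6.90 on the normal-diet array, spanned -0.12 to -0.02. The much brighter S-Probe27, at 97.3 units on the high-fat array and 116.6 on the normal-diet array, spanned -0.30 to -0.0002, which holds the value of miR-145a-3p. No control set of like brightness was at hand for this arm.

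The place of each arm among miRNAs of like brightness was described next. The 1339 miRNAs were put in 10 classes by mean signal. In the brightest class, of 134 miRNAs, the median log2 difference was -0.11 and the central 80% spanned -0.64 to 0.87. miR-145a-5p had 13 miRNAs of that class below it, and miR-143-3p had 15. miR-143-5p, in the 9th class (median -0.01), had 18 below it, and miR-145a-3p, in the 7th (median -0.07), had 4. Among all 1339, the share with a lower value than the arm was 2.17% for miR-145a-5p, 2.61% for miR-143-3p, 3.73% for miR-143-5p and 6.65% for miR-145a-3p. The central 80% of the 9th class began at -0.61 and that of the 7th at -0.22. Within its own class miR-145a-3p thus lay below the central 80%, miR-145a-5p at its lower bound, and miR-143-3p and miR-143-5p inside it.

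**Figure D2:**
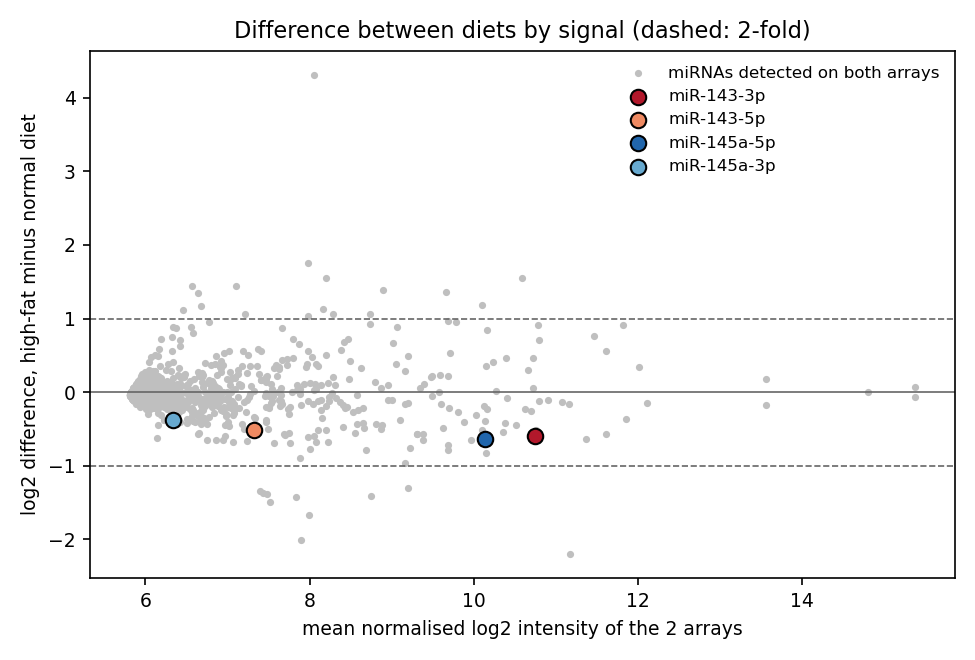
Log2 difference, high-fat minus normal diet, against the mean normalised log2 intensity of the 2 arrays. Grey points are the miRNAs detected on both arrays, large coloured points the 4 arms, and dashed lines mark 2-fold; the arms lie between -0.38 and -0.64, below most grey points of like signal and inside the dashed lines.

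The size of these differences depends on how the arrays are scaled. Scaled to the median of the miRNAs detected on both arrays, miR-143-3p was at -0.99 and miR-145a-5p at -0.86. In the authors' deposited table the values of miR-143-3p were 1877 on the high-fat array and 4341 on the normal-diet array, a log2 difference of -1.21, and those of miR-145a-5p were 1306 on high-fat diet and 2766 on normal diet, at -1.08, so that both passed 2-fold. Among all miRNAs, 62 were at least 2-fold lower and 101 at least 2-fold higher by the values of the authors' deposited table. The dim arms were at -0.77 for miR-143-5p (140.1 on the high-fat array and 239.15 on the normal-diet array) and at -0.98 for miR-145a-3p (30.6 on high-fat diet and 60.4 on normal diet) in the authors' deposited table.

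Scaling to the spike controls moved the median of all 1339 miRNAs to 0.35 and left 77 of them below their normal-diet value, in place of 862. With it miR-143-3p stayed lower, at -0.60, and miR-145a-5p at -0.47, whereas miR-143-5p was at -0.03 and miR-145a-3p at 0.07. Measured against the median of the miRNAs of like brightness under the same scaling, miR-143-3p was at -0.91 and miR-145a-5p at -0.78, with miR-143-5p at -0.47 and miR-145a-3p at -0.30. This scaling shifts all miRNAs by the same constant, so these values are by construction those without scaling, and the sign of miR-145a-3p turned through that shift alone.

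**Figure D3:**
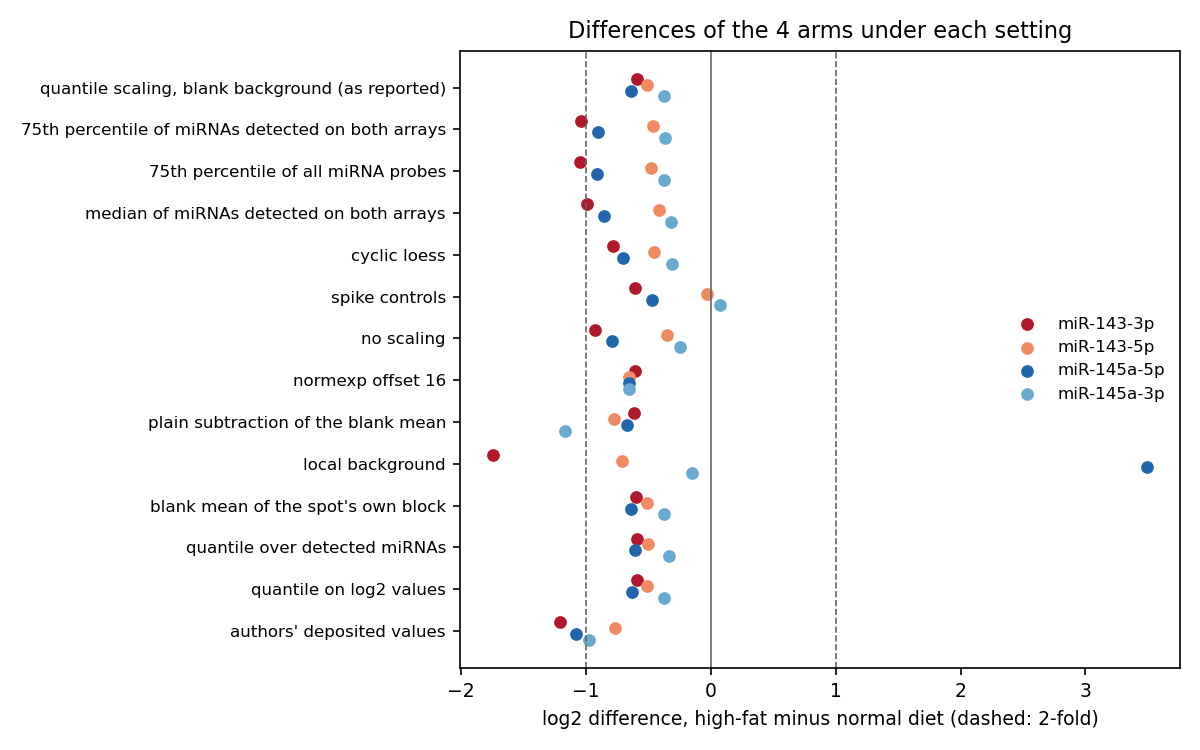
Log2 difference, high-fat minus normal diet, of the 4 arms (colours) under the reported setting (top row) and 13 alternatives. miR-143-3p and miR-143-5p lie below 0 in every row; miR-145a-3p lies at 0.07 with the spike controls and miR-145a-5p at 3.49 with the local background.

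miR-145a-5p turned sign under 1 alternative, the local background, where it was at 3.49. The scanner's local background for this spot was 412.2 units on the high-fat array and 1662 on the normal-diet array, which there exceeded the spot itself, at 1564. Among miRNA spots with more than 100 units above the blanks, this was so for 10 of 240 on the high-fat array and for 15 of 219 on the normal-diet array. For miR-143-3p the local background was 969.1 on the high-fat array and 1283 on the normal-diet array, far above the blank means of 69.2 on high-fat diet and 75.6 on normal diet, and the log2 difference with it was -1.74. The excess of the local background over the blanks came to 74.6% of the signal of miR-143-3p on the high-fat array and 51.7% on the normal-diet array.

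The spots of miR-145a-5p and miR-143-3p lay in blocks 6 and 12 of 32, and both dim arms in block 28. The other miRNAs of these blocks detected on both arrays had median differences, with quantile scaling, of -0.08 (block 6, n = 42, 31 of them lower), -0.05 (block 12, n = 42) and -0.03 (block 28, n = 44). With the blanks of the spot's own block as background, the 4 arms were again between -0.38 and -0.64.

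**Figure D4:**
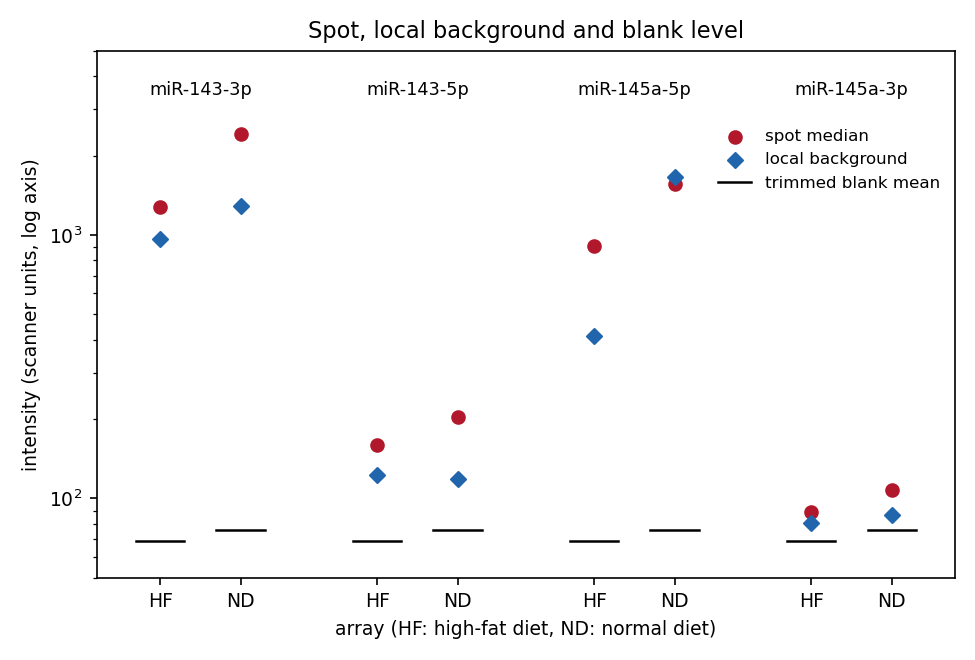
Spot median (red), local background (blue diamonds) and trimmed blank mean (black lines) of the 4 arms in scanner units on a log axis, with the high-fat array (HF) left of the normal-diet array (ND). The local background lies above the blank mean for all 4 arms on both arrays, and above the spot itself for miR-145a-5p on the normal-diet array, at 1662 against 1564.

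miR-145b, a related miRNA with a gene of its own outside Carmn, has a probe on the array and is no member of the cluster. It had 151.5 units above the blanks on the high-fat array and 255.3 on the normal-diet array, and its normalised intensity was 195.6 on the high-fat array against 335.5 on the normal-diet array (log2 difference -0.78). Whether this probe also binds miR-145a was not tested.

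The miRNAs whose pair of values came nearest to each arm were taken by Euclidean distance over the 2 normalised log2 values, 5 per arm. Nearest to miR-143-3p was miR-21a-5p (distance 0.052), at 1441 on the high-fat array and 2068 on the normal-diet array, followed by let-7b-5p, miR-29a-3p, miR-23a-3p and let-7d-5p. miR-145a-5p had miR-27a-3p (distance 0.097, 919.8 on the high-fat array against 1315 on the normal-diet array), miR-30a-5p, miR-22-3p, miR-30d-5p and miR-29b-3p beside it. For miR-143-5p they were let-7j, miR-181a-5p, miR-3090-3p, miR-30a-3p and miR-130b-3p, and for miR-145a-3p they were miR-374b-5p, miR-664-3p, miR-362-3p, miR-135b-5p and miR-28b. With 1 array per diet this likeness rests on 2 values each, and it says which probes were about as bright on both arrays, no more.

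Other miRNAs of stroma and smooth muscle had values on both sides of 0. Of 16 listed companions 14 had a probe of their own and 13 were detected on both arrays; 7 of these were lower and 6 higher on the high-fat array, with a median of -0.16, beside 64.4% lower and a median of -0.04 over all 1339 miRNAs. With spike-control scaling 3 were lower and 10 higher, with a median of 0.24, beside 5.75% lower and a median of 0.35 over all miRNAs. Whether these companions differ from the cluster was not tested. The smooth muscle miRNA miR-490-3p was not above the detection limit on either array. Lower were miR-10a-5p (-0.55), miR-22-3p (-0.39), miR-10b-5p (-0.38), miR-28a-5p (-0.31), miR-152-3p (-0.20), miR-218-5p (-0.19) and miR-100-5p (-0.16). Higher were miR-199a-5p (0.50), miR-125b-5p (0.40), miR-199b-5p (0.39), miR-214-3p (0.12), miR-214-5p (0.05) and miR-24-3p (0.02). In the authors' deposited table miR-125b-5p was at -0.10 and miR-24-3p at -0.56. The local background also turned companions: it put miR-22-3p at 1.02, miR-100-5p at 0.11 and miR-152-3p at 0.03, and miR-125b-5p at -0.77 and miR-24-3p at -2.36. The 4 arms of the cluster lay between -0.38 and -0.64, so 3 companions, miR-10a-5p, miR-22-3p and miR-10b-5p, lay within their range and none below it.

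With quantile scaling, 7 of the 13 companions detected on both arrays were lower, with the sign of the cluster, and 6 were higher. Among the higher were the miR-199 and miR-214 miRNAs with a probe of their own. These mark mesenchymal cells, and their values were above 0, opposite in sign to the cluster. Those of miR-214-3p (0.12) and miR-214-5p (0.05) were below 0.185, the largest SD of an unscaled single-spot difference among the control sets. miR-214-5p had only 11.7 units above the blanks on the high-fat array and 5.63 on the normal-diet array. With the local background miR-214-3p was at -0.11. miR-199a-5p had a normalised intensity of 349.8 on the high-fat array and 247.5 on the normal-diet array. The probe shared by miR-199a-3p and miR-199b-3p was at 417.4 on the high-fat array and 311 on the normal-diet array (0.42). The mature strands are printed to show which of these probes can be read apart, from RefSeq on GRCm38.p6, 5′ to 3′, with bases 2 to 8 (the seed) in capitals:
miR-199a-5p: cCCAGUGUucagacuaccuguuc
miR-199a-3p: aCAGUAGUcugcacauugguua
miR-199b-3p: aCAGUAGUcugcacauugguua
miR-10a-5p: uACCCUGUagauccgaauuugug
miR-10b-5p: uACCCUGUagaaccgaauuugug
The 3p strands of miR-199a and miR-199b have identical letters, and their shared probe gives 1 value. No sequence of miR-199b-5p was at hand, so whether its probe can be read apart from that of miR-199a-5p was not tested. miR-10a-5p, encoded at chr11:96317186-96317208 on the plus strand, and miR-10b-5p, at chr2:74726074-74726096 on the plus strand, share a seed and differ by U12A, counted from the 5′ end with the base of miR-10a-5p first, so their probes are uncertain as separate measurements.

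**Figure D5:**
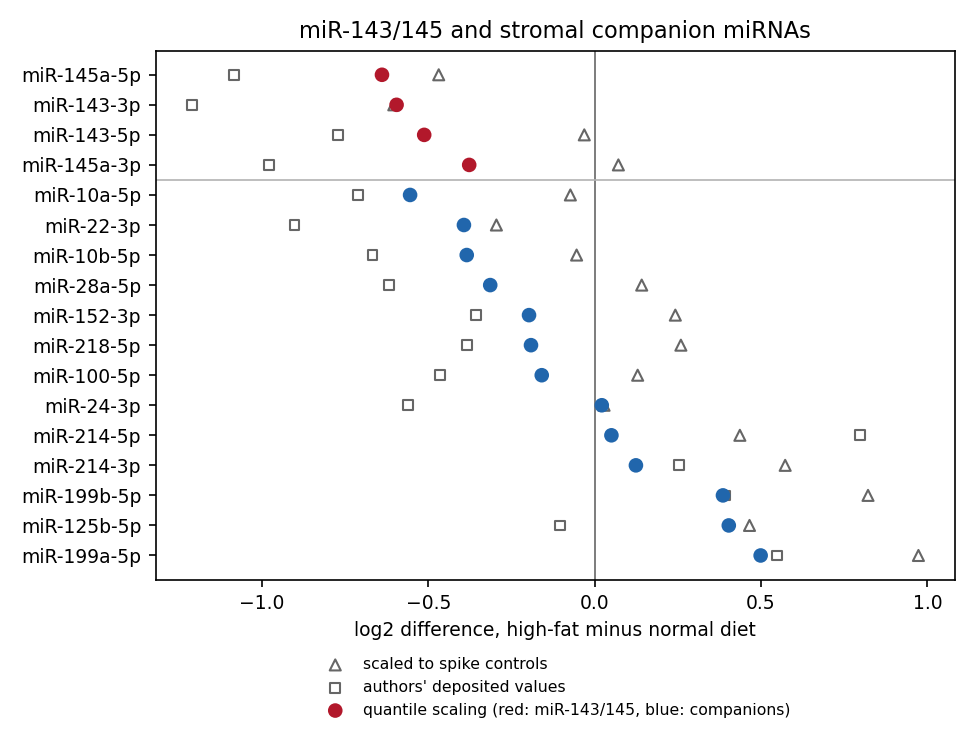
Log2 difference, high-fat minus normal diet, of the 4 arms of the cluster (red, above the grey line) and of the 13 stromal companions detected on both arrays (blue) with quantile scaling, beside the same with spike-control scaling (triangles) and in the authors' deposited values (squares). With quantile scaling the arms of the cluster and 7 of the 13 companions lie left of 0. The other 6 companions lie right of it, among them the miR-199 and miR-214 probes, from 0.05 to 0.50. With spike-control scaling miR-145a-3p lies right of 0, at 0.07.

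Markers of several other cell types in the fat pad were lower together with the cluster under quantile scaling. Of all 1339 miRNAs, 64.4% were likewise below their normal-diet value with quantile scaling, against the spike controls 5.75% were, and 52.7% when the local background was subtracted. The endothelial miRNAs miR-126a-3p and miR-126a-5p, 2 of 2, had a median of -0.66 (1.28, with 2 of 2 higher, with the local background) and summed to 2670 units above the blanks on the high-fat array and 4318 on the normal-diet array. All 6 leukocyte miRNAs were lower (4 with the local background, 5 when scaled to the spike controls), from miR-150-5p at -1.35 to miR-155-5p at -0.06, with sums of 465.1 units on the high-fat array and 880.4 on the normal-diet array. Of 11 miRNAs tied to adipocytes, all detected on both arrays, 10 were lower (7 with the local background), from miR-378a-3p at -1.66, and miR-335-5p was higher at 1.76; their median was -0.72 and their sums were 6400 units on the high-fat array and 11145 on the normal-diet array. The arms of the cluster summed to 2156 units on the high-fat array and 3985 on the normal-diet array. All these sums are unscaled, and bright control spots also had less signal on the high-fat array. S-Probe28 averaged 1595 units on the high-fat array and 2194 on the normal-diet array, and Spike Control 1 averaged 5572 and 6913. Of the dim sets, S-Probe7 went the other way, at 7.06 and 5.34, and Negative Control 3 did not, at 4.85 and 6.90. Of 7 striated muscle miRNAs 4 were detected on both arrays, from miR-133a-3p at -0.11 to miR-1a-3p at 0.13 (all 4 above 0 with spike-control scaling), while the heart and skeletal muscle miRNAs miR-208a-3p, miR-208b-3p and miR-499-5p were below the limit on both. Of the epididymis and epithelium miRNAs 9 were detected on both arrays, 8 of them higher (9 with spike-control scaling), from miR-203-3p at -0.21 to miR-34c-5p at 4.31. The 3 erythroid miRNAs were lower, from miR-451a at -2.20 to miR-144-5p at -0.63. The part of these cell types in the differences of the cluster was not tested.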

How the data were processed

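RNA labelled with Cy5 was hybridised to 3D-Gene arrays in 1 colour, per the labels' protocols. The deposited scanner files give spot and local background median intensity, merged from 3 gains, per the file headers. The processed intensity values in the authors' deposited table equal the spot median minus the trimmed blank mean, times a factor per array (1.56 for high-fat diet and 1.86 for normal diet). They are linear, with a median of 25 on each array and no centring per miRNA. Scanner and software were not given in the sources used here. Here, limma 3.58.1 in R 4.3.3 applied normexp (offset 50) with the trimmed blank mean (5% off each end) as background. Quantile scaling over the 1900 miRNA probes and log2 followed. An earlier look at these data had shown that the local background follows the spot, so it served as an alternative. The procedure was also run on the normal-diet array and a copy of it with known changes. That simulation lacks the unequal brightness of the 2 real arrays, so it does not test the differences given here. Of the probes, 12 carry several names and got no value under a single name. miR-145b was described since its name starts like that of a member. Companions were named as a whole list, other lists by count and extremes, and 5 nearest miRNAs per arm by distance. The members and lists were chosen with earlier results of these data known.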

Additional observations from a re-analysis of the deposited data

How the results depend on the processing

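The differences of the 4 arms and their median were recomputed under 13 alternatives, the counts past 2-fold under 15 and the number of arms detected under 2. Of these alternatives, the blanks of the spot's own block, quantile scaling over detected miRNAs only and quantile scaling of log2 values were chosen after seeing the data. The alternative called plain subtraction includes quantile scaling after the blank mean is subtracted. miR-143-3p and miR-143-5p stayed below 0 under all 13, and miR-145a-5p and miR-145a-3p under 12 each. miR-143-3p was at -1.04 and -1.05 with the 75th percentile of miRNAs detected on both arrays and of all probes, -0.99 with median scaling, -0.78 with cyclic loess, -0.92 without scaling, -1.74 with the local background and -1.21 in the authors' deposited values. miR-145a-5p was at -0.90 and -0.92 with the 75th percentiles, -0.86 with median scaling, -1.08 in the deposited values and 3.49 with the local background, which exceeded its spot on the normal-diet array. miR-143-5p was at -0.031 with spike controls, -0.78 by plain subtraction, -0.71 with the local background and -0.77 in the deposited values. miR-145a-3p was at 0.071 with spike controls, -0.65 with an offset of 16, -1.17 by plain subtraction, -0.15 with the local background and -0.98 in the deposited values. The median of the 4 arms was -0.25 with spike controls and -1.03 in the deposited values.

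Of all miRNAs detected on both arrays, 17 were at least 2-fold higher and 10 lower. These counts were 45 and 5 with spike controls, 64 and 98 by plain subtraction and 101 and 62 in the deposited values. With an offset of 16, 30 were higher, with undetected probes included 27 were higher, and with the local background 18 were lower. Of the 1339 miRNAs, 862 were below 0 as reported, 1017 with the 75th percentile of all probes, 754 with quantile scaling over detected miRNAs, 720 with cyclic loess, 706 with the local background, 665 in the deposited values, 513 without scaling and 77 with spike controls. All 4 arms were detected on both arrays under both other detection limits. Apart from what is shown above, the cause of these changes was not tested. No paired analysis was possible because each diet had 1 array. A single spot per probe and 1 array per diet limit every value.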
